A study of Mus musculus with 17 samples.

Results

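NF-kB is the family of paired transcription factors that IκB proteins hold in the cytoplasm until a signal from a pattern receptor, the TNF receptor or the interleukin-1 receptor leads to degradation of the IκB. The freed dimers then switch on inflammatory genes, among them the genes of their own inhibitors, so that the pathway limits itself. In bone marrow the pathway is best known in monocytes, macrophages and neutrophils, and it is often active in myeloid leukemia. The response was followed here through 34 genes chosen by symbol: 5 NF-kB subunits, 8 IκB proteins and feedback inhibitors, 7 receptors and sensors, 4 adaptors and signalling proteins, 7 cytokines and 3 other induced genes. All 34 were found among the 56305 genes of both count tables, each in a single row, and 33 had enough counts to be tested. The exception was Il10.

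Total RNA of bone marrow from C57BL/6 mice with acute myeloid leukemia was sequenced. Every library carried the genotype Dnmt3aR878H/+;Npm1cA/+, a heterozygous point mutation of the DNA methyltransferase gene Dnmt3a together with the cytoplasmic form of nucleophosmin, so the controls were leukemic too. The control group held 8 libraries, and the Mt1ko group held 9 libraries in which Mt1, the gene of the metal-binding protein metallothionein 1, had been targeted with CRISPR-Cas9. The labels call this a knockdown and name no guide, age or sex. All 17 libraries are labelled technical replicates, and the authors' summed table joins them into 6 samples by library number: control 1-3, 7-9 and 14-15, and Mt1ko 4-6, 10-12 and 16-18. The sums were the unit of the comparison, with n = 3 in each group. Nothing in the labels says that the sums come from separate animals or cultures, so a p-value speaks only to how far these samples differ among themselves, and that spread may be technical.

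Library totals ran from 27124722 to 38645072 counts. Mt1 measured 353, 441 and 359 CPM (counts scaled to the size of the library) in the control samples and 172, 67.8 and 80.7 in the Mt1ko samples. That log2 fold change of -1.85 (SE 0.34) had an adjusted p of 1.00 in edgeR's quasi-likelihood test with Benjamini-Hochberg adjustment over 16666 genes. The library labelled Mt1ko 6 stood at 326 CPM of Mt1, near the lowest control library at 348, while the other 8 Mt1ko libraries held 41.8 to 87.2, so it went against its label. Without it the log2 fold change of Mt1 was -2.30, and Mt1 passed the threshold. Libraries 10 to 12 also stood apart: 21.9% to 30.2% of their counts came from mitochondrial ribosomal RNA. That share was 8.77% and 11.2% in libraries 8 and 9 and 4.58% to 6.31% in the other 12. Only 11548 to 13174 genes were detected in libraries 10 to 12, against 14823 to 17739 elsewhere. Of 20 monocyte and macrophage markers, 15 reached 1 CPM in each group, whereas 0 of 10 B cell and 0 of 12 T and NK cell markers did.

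Promoter letters show which of the 34 genes carry the decamer that NF-kB dimers are known to bind. Of the 34 members, 25 had an entry in the RefSeq promoter table of build GRCm38.p6. The 9 without an entry were Cd14, Cd40, Il10, Nfkb1, Nfkbiz, Osm, Relb, Ripk2 and Tlr4. The 250 bases before RefSeq's annotated start were searched on both strands for the κB decamer consensus, and 10 of the 25 members (40.0%) held at least 1 match. Among all 27025 genes of the table, 2225 (8.23%) held at least 1. The members were chosen as NF-kB pathway genes, several of them known targets, so the higher share is not a result of these data. The 10 members with a match were Il6, Nfkb2, Nfkbia, Nfkbie, Nlrp3, Rel, Tlr2, Tnfaip2, Tnfaip3 and Tnip1. The lines below show the 150 bases before the start of Nfkbia, the gene of IκBα, and of Ptgs2, the member with the highest CPM, both on the strand of the gene. They are followed by 30 bases around a match in 5 other members, each on the strand that reads the match. Capitals mark the match. A match is a description of these letters and not evidence of binding, and the absence of one says only that the letters are not in this window.
Nfkbia, chr12:55492648-55492797, minus strand: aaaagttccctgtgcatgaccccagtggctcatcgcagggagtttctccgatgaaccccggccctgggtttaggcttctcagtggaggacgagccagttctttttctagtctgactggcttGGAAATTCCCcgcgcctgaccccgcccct
Ptgs2, chr1:150099881-150100030, plus strand: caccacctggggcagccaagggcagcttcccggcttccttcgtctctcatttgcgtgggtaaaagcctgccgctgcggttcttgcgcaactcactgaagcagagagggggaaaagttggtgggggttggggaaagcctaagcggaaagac
Il6, chr5:30013060-30013089, plus strand: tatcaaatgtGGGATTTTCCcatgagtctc
Tnfaip3, chr10:19015516-19015545, minus strand: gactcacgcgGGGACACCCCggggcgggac
Tnfaip2, chr12:111442627-111442656, minus strand: cgaccctggaGGGGCCCTCCtaaaatagtc
Nfkb2, chr19:46304689-46304718, minus strand: cccccgagggGGGGAATTCCcgtgacgatc
Tlr2, chr3:83841761-83841790, minus strand: aggacacctgGGGAATTCCCacacggagcc

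The first question was whether the response differed between Mt1ko and control marrow. None of the 33 tested members was called at an adjusted p under 0.05, beside 0.0% of all 16666 genes tested (0 genes). DESeq2 and limma-voom also called 0 members. At an unadjusted p under 0.05, 0 members passed, beside 1.03% of all genes (171 genes). No member had its 3 Mt1ko samples all on one side of the 3 control samples, beside 7.1% of all genes. In all, 19 of 33 members lay above 0 and 14 below, beside 48.3% of all genes above 0. The median log2 fold change of the members was 0.04, and that of all tested genes was -0.01. For 23 of the 33 members the 95% interval of the fold change lay within 1 log2 unit of 0, beside 45.3% of all genes, so a doubling or halving lay outside the interval for those genes. For the other 10 the interval reached past 1 log2 unit on at least 1 side. Those of Tnfaip3, Il1b, Il1rn and Icam1 did so only above 0. Without library 6, 20 members lay above 0 and the median was 0.07. Without sample 10-12, 23 lay above 0 and the median was 0.09.

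**Figure D1:**
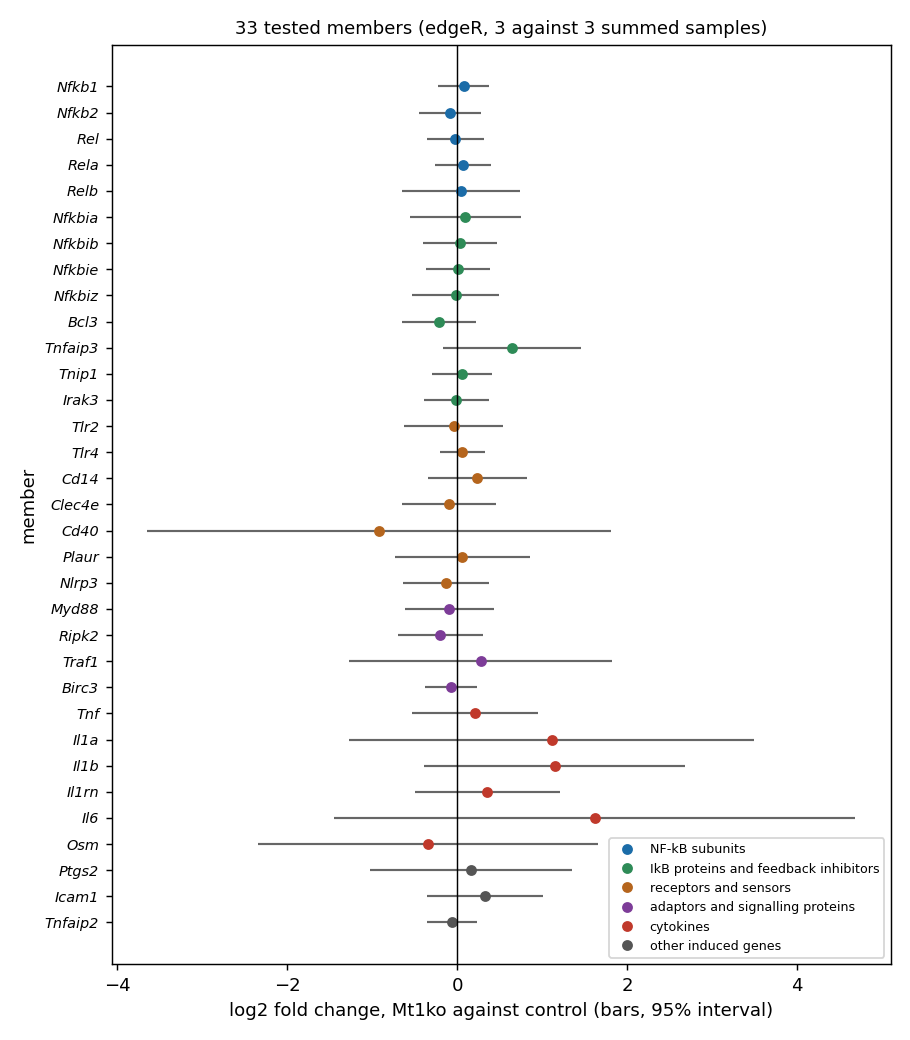
Log2 fold change of each of the 33 tested members, Mt1ko against control, from edgeR on 3 against 3 summed samples. Points are coloured by role and bars are 95% intervals. Every bar crosses 0, and the widest belong to Il6, Cd40 and Il1a.

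The 5 subunits form the dimers themselves. Nfkb1, which encodes p105 and its product p50 and had the smallest p of the subunits, measured 110.1, 94.6 and 108 CPM in control samples 1-3, 7-9 and 14-15. In Mt1ko samples 4-6, 10-12 and 16-18 it measured 120.3, 100.4 and 109 CPM. The groups overlapped, and each group was lowest in its middle sample. Between the groups Nfkb1 differed by 0.08 log2 units (SE 0.13, 95% interval -0.22 to 0.38). Rela, the transactivating subunit of the canonical dimer, had 84.0 CPM ± 9.82 (SD, n = 3) in control and 87.8 ± 8.58 in Mt1ko. Rel and Nfkb2 lay near 40 CPM in both groups (39.3 ± 3.65 against 38.7 ± 3.08 and 41.1 ± 2.53 against 38.8 ± 5.43), and Relb, the partner of p52 in the alternative pathway, at 8.58 ± 1.78 against 8.85 ± 1.61. Fold changes of the 5 spanned -0.08 to 0.08 on the log2 scale, with 3 above 0 and 2 below. All 5 intervals stayed within 1 log2 unit of 0. Relb was uneven within sample 10-12, with 1 count in library 10, 556 counts in library 11 and 0 in library 12.

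The IκB proteins of the cytoplasm and the feedback inhibitors keep the response in check. Nfkbia, which encodes IκBα and is itself a target of NF-kB, lies at chr12:55489410-55492647 on the minus strand. It measured 259.6, 144 and 187 CPM in the control samples and 268, 143 and 219 in the Mt1ko samples. Samples 7-9 and 10-12 were almost equal although they carry different labels, and they were the lowest of their groups. The log2 fold change was 0.09 (SE 0.28). Tnfaip3 encodes A20, the ubiquitin-editing enzyme that switches the pathway off, and lies at chr10:19000910-19015657 on the minus strand. It had the smallest p of all members (0.10 unadjusted). Its values were 26.6, 34.6 and 28.5 CPM in control and 33.3, 76.3 and 30.6 in Mt1ko. Sample 10-12 alone was high, and the other 2 Mt1ko samples lay within the control range. Its log2 fold change of 0.64 (SE 0.35, adjusted p = 1.00 in edgeR's quasi-likelihood test) became 0.10 without sample 10-12. Within that sample, libraries 11 and 12 held 86.3 and 79.2 CPM and library 10 held 27.1.

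None of the other 6 genes of this role, which also holds nuclear IκB proteins, passed the test either. Tnip1, an A20-binding protein, ran from 104 to 107 CPM in the control samples and from 88.6 to 125 in the Mt1ko samples. Irak3, a brake on Toll-like receptor signalling, had 39.3 ± 3.83 and 39.1 ± 5.68. Nfkbie and Nfkbib, the genes of IκBε and IκBβ, varied little between the sums, with 20.2 ± 0.893 against 20.3 ± 0.931 CPM for Nfkbie and 17.9 ± 0.813 against 18.3 ± 2.30 for Nfkbib. Their libraries were less even: within sample 10-12 Nfkbie ran from 2.503 to 24.8 CPM and Nfkbib from 5.67 to 25.0. Nfkbiz, a nuclear IκB, measured 30.9 ± 7.22 and 30.6 ± 4.99 CPM. Bcl3, another nuclear IκB, had 28.6 ± 4.61 in control and 24.6 ± 2.56 in Mt1ko, which gave -0.21 (SE 0.19) on the log2 scale. Of the 8 genes 5 lay above 0 and 3 below, with a median of 0.02.

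Receptors and sensors take up bacterial and danger signals. Cd14, the coreceptor that hands lipopolysaccharide to Tlr4, had the smallest p of this role. It measured 150.2, 293 and 166 CPM in control and 236, 261 and 221 in Mt1ko. All 3 Mt1ko samples lay above control samples 1-3 and 14-15 and below control sample 7-9. On the log2 scale the difference was 0.24 (SE 0.25, adjusted p = 1.00 in edgeR's quasi-likelihood test). Without control sample 7-9 it was 0.60 (SE 0.14), with an unadjusted p of 0.0044 and an adjusted p of 1.00 in the same test. Leaving out the only control above the Mt1ko samples makes the groups part, so that p is no support for a difference. In that fit 1 member and 182 of 17427 genes had an unadjusted p under 0.05. By library, Cd14 was 386, 317 and 194 CPM in libraries 7, 8 and 9 and 142 to 183 in the other 5 control libraries. Tlr4, the lipopolysaccharide receptor itself, varied little, with 144 CPM ± 10.7 in control and 150.3 ± 4.63 in Mt1ko.

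Plaur, the urokinase receptor, showed the reverse order. It measured 295, 170.2 and 296 CPM in control and 349, 145 and 300.4 in Mt1ko. Sample 7-9 and sample 10-12 were again low and the other 4 samples high, which left a log2 fold change of 0.06 (SE 0.34). The order was shared by 3 further receptors and sensors: Clec4e (Mincle, a C-type lectin receptor) with 163, 109 and 179 CPM in control and 174, 105 and 143 in Mt1ko, the inflammasome sensor Nlrp3, and Tlr2. Nlrp3 had 127 CPM ± 27.6 in control and 116 ± 26.0 in Mt1ko, and Tlr2 28.6 ± 5.89 and 27.8 ± 7.502. Cd40, a TNF-family receptor of antigen-presenting cells, was nearly absent at 0.545, 0.309 and 0.327 CPM in control and 0.122, 0.176 and 0.325 in Mt1ko. Its groups overlapped at the top of the Mt1ko range, and its log2 fold change of -0.92 (SE 1.18) rested on 0 to 25 counts per library. Of the 7 receptors and sensors 3 lay above 0 and 4 below, with a median of -0.04.

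Adaptors carry the signal from receptor to kinase. Ripk2, the kinase downstream of the NOD receptors, had the smallest p of the 4, with 14.9, 15.7 and 16.0 CPM in control and 15.9, 11.4 and 13.3 in Mt1ko. Mt1ko sample 4-6 fell inside the control range and the other 2 below it. That gave a log2 fold change of -0.20 (SE 0.22). Myd88, the adaptor of most Toll-like receptors, measured 89.6 CPM ± 19.6 in control and 84.0 ± 19.4 in Mt1ko. Birc3 (cIAP2, a ubiquitin ligase of TNF receptor complexes) measured 43.0 ± 0.715 and 40.9 ± 3.18. Traf1, a TNF receptor-associated factor, was low at 2.20 ± 1.23 and 2.67 ± 1.19. Of the 4 genes, 1 lay above 0 and 3 below.

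Cytokines are the outputs of the response, and in this marrow most were scarce. The 5 that lay above 0 in Mt1ko were Il6, Il1b, Il1a, Il1rn and Tnf, and Osm lay below. The median of the 6 tested was 0.73, and 1 of the 6 intervals stayed within 1 log2 unit of 0. Il1b, the main product of inflammasome activity, measured 0.781, 2.58 and 1.26 CPM in control and 4.66, 3.31 and 2.27 in Mt1ko. Only control sample 7-9 reached into the Mt1ko range. Fitted over all samples, Il1b differed by 1.15 log2 units (SE 0.66, interval -0.39 to 2.68, unadjusted p 0.12, adjusted p 1.00 in edgeR's quasi-likelihood test). It rested on 0 to 359 counts per library, and libraries of the same sample differed widely: 1.89, 10.3 and 1.97 CPM in libraries 4, 5 and 6. Il1a, the cell-bound interleukin-1, measured 0.298, 0.773 and 0.712 CPM in control and 1.78, 0.252 and 1.82 in Mt1ko. Samples 4-6 and 16-18 were above all controls and sample 10-12 below them. Its log2 fold change was 1.11 (SE 1.03). The level of sample 4-6 came mostly from library 5, with 0.639, 4.67 and 0.155 CPM in libraries 4, 5 and 6, and counts ran from 0 to 163 per library.

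Il6, the acute-phase cytokine, was set by 1 sample. It measured 1.85, 1.77 and 2.45 CPM in control and 0.891, 17.5 and 0.231 in Mt1ko. Sample 10-12 was above every control and the other 2 Mt1ko samples were below every control. The log2 fold change was 1.62 (SE 1.32) with all samples and -1.85 (SE 0.74) without sample 10-12, with adjusted p of 1.00 in edgeR's quasi-likelihood test in both fits. Within that sample library 11 had 28.6 CPM and libraries 10 and 12 had 7.59 and 7.14. Libraries 7, 16 and 18 had 0 counts of Il6, which allows up to 0.0776 CPM at the largest library total and 0.111 at the smallest, for counting error only.

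Il1rn, the secreted antagonist of interleukin-1, was far more abundant than either interleukin-1 gene. It measured 67.5, 50.4 and 54.3 CPM in control and 95.5, 32.8 and 91.8 in Mt1ko. Samples 4-6 and 16-18 were above all controls, sample 10-12 was below all of them, and the log2 fold change was 0.35 (SE 0.37). Without sample 10-12 it was 0.71 (SE 0.15), with an unadjusted p of 0.0021 and an adjusted p of 1.00 in edgeR's quasi-likelihood test. Leaving out the only Mt1ko sample below the controls makes the groups part, so that p is no support for a difference. In that fit 3 members and 425 of 17772 genes had an unadjusted p under 0.05. Tnf, the tumor necrosis factor gene, measured 23.2 CPM ± 7.41 in control and 26.9 ± 8.94 in Mt1ko. Osm, the interleukin-6-family cytokine oncostatin M, measured 48.1, 8.64 and 34.6 CPM in control and 38.6, 3.12 and 30.2 in Mt1ko, so that sample-to-sample differences within each group far exceeded the log2 fold change of -0.34 (SE 0.86). Il10, the anti-inflammatory cytokine, had 5 counts in library 5, 2 in library 14 and 0 in the other 15 libraries. Il1rn, Tnf, Osm, Clec4e, Nlrp3 and Tlr2 are described here because of values seen in these samples.

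Ptgs2, Icam1 and Tnfaip2 are classical NF-kB-induced genes outside the other roles. Ptgs2 encodes cyclooxygenase-2, the inducible enzyme of prostaglandin synthesis, and lies at chr1:150100031-150108227 on the plus strand. It had the highest mean CPM of the 34: 321, 155 and 333 CPM in control and 395, 100.4 and 409 in Mt1ko. The spread within the groups exceeded the difference between them (270 ± 99.2 against 301 ± 174, SD, n = 3; log2 fold change 0.16, SE 0.51). Icam1, the adhesion molecule that binds leukocyte integrins, measured 25.7, 20.2 and 23.0 CPM in control and 41.6, 18.6 and 26.2 in Mt1ko. Its Mt1ko samples lay on both sides of the controls, and its log2 fold change was 0.33 (SE 0.29). Tnfaip2, a TNF-induced gene, was the steadiest of the 3, with 181, 221 and 203 CPM in control and 185, 205 and 189 in Mt1ko and a log2 fold change of -0.06 (SE 0.13).

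Levels can be compared between genes only per length. In CPM per kilobase of exon, control marrow was led by Nfkbia (122), Cd14 (117), Plaur (96.9), Ptgs2 (58.9) and Tnfaip2 (40.5). Il6 (0.833), Il1b (0.808), Il1a (0.301), Traf1 (0.250), Cd40 (0.116) and Il10 (0.0076) were the lowest. The inhibitor and the lipopolysaccharide coreceptor were thus far above the interleukins. Exons of 9 members (Nfkb2, Nfkbib, Bcl3, Irak3, Myd88, Il1a, Il1b, Icam1 and Tnfaip2) overlap a gene on the opposite strand, and with the strand setting of the counting not known such reads cannot be told apart. In the same counts the overlapping genes were highest for Nfkbib (Sirt2, 56.6 CPM in control), Myd88 (Acaa1a, 54.0) and Irak3 (Tmbim4, 19.3). For the other members none exceeded 3.82 CPM in control. On the CPM scale 27 of the 34 members reached 10 CPM in control and 3 were below 1 CPM.

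The samples of a group differed in the same direction for many members. In control, sample 7-9 was the lowest of 3 for 19 of the 33 members (57.6%), against 37.5% of all tested genes. In Mt1ko, sample 10-12 was the lowest for 19 of 33 (57.6%), against 51.2% of all genes, and sample 4-6 was the highest for 19 (57.6%), against 35.3%. Both low positions coincided in 15 members (45.5%, against 24.9% of all genes): Nfkb1, Nfkb2, Relb, Nfkbia, Nfkbiz, Tlr2, Clec4e, Plaur, Nlrp3, Myd88, Birc3, Il1rn, Osm, Ptgs2 and Icam1. Samples 7-9 and 10-12 were both the highest of their groups for 6 members (18.2%, against 19.5% of all genes): Rela, Tnfaip3, Irak3, Cd14, Traf1 and Tnfaip2. These shares are a description of 6 samples and carry no test.

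**Figure D2:**
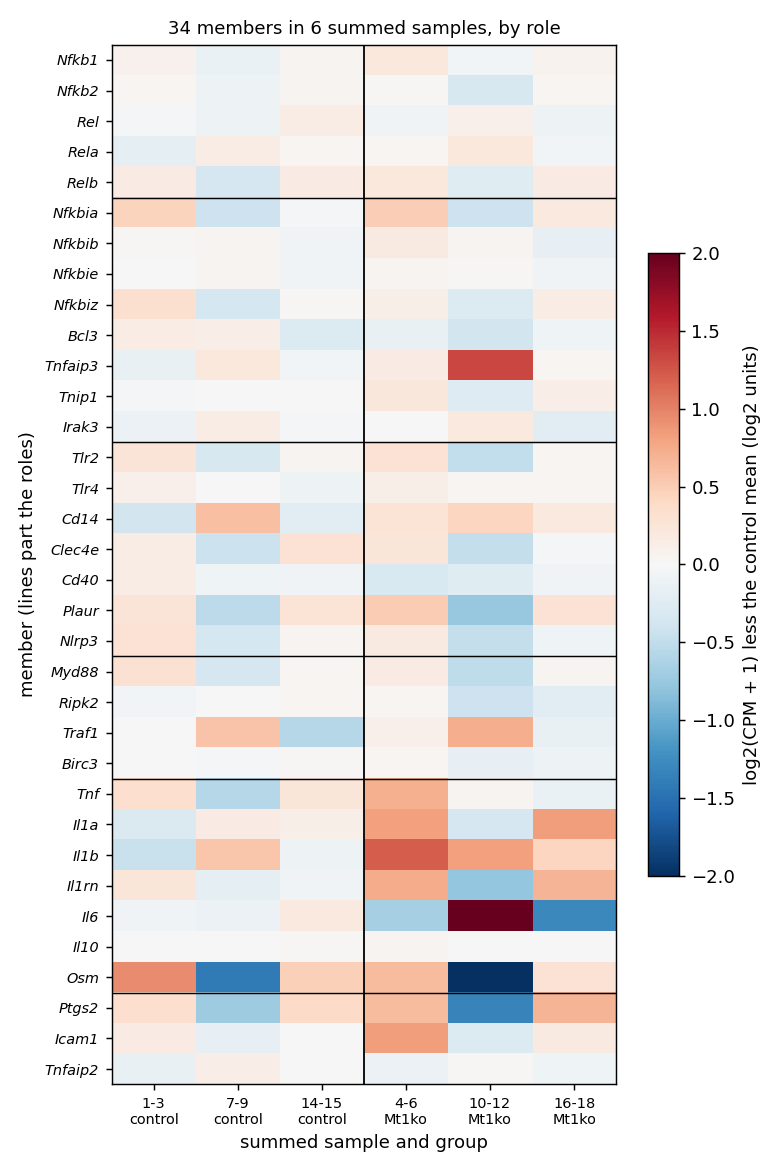
Each cell is log2(CPM + 1) of a member in a summed sample less the mean of the 3 control samples, for all 34 members ordered by role; colours stop at 2 log2 units in either direction. Ptgs2, Osm, Plaur, Nlrp3, Clec4e and Nfkbia are blue in control sample 7-9 and in Mt1ko sample 10-12, whereas Tnfaip3 and Il6 are darkest red in sample 10-12.

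The single libraries showed the same order. Ptgs2 was 214, 159 and 102 CPM in control libraries 7, 8 and 9 and 80.7, 100.05 and 74.3 in Mt1ko libraries 10, 11 and 12. In the other 11 libraries it was 294 to 471, so the 6 libraries did not overlap with the rest. Osm was 14.2, 5.56 and 6.65 CPM in libraries 7 to 9, 1.53, 5.10 and 1.07 in libraries 10 to 12, and 26.5 to 54.2 elsewhere. Plaur was 151 to 201 CPM in libraries 7 to 9 and 79.3 to 202 in libraries 10 to 12, and 260.2 to 366 elsewhere. Nfkbia and Clec4e also lay lower in these 6 libraries, with Nfkbia at 90.4 to 185 CPM and Clec4e at 69.3 to 141, although library 16 had 133 CPM of Clec4e. These CPM use the plain library total, including mitochondrial ribosomal RNA, which took the largest share in libraries 10 to 12.

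**Figure D3:**
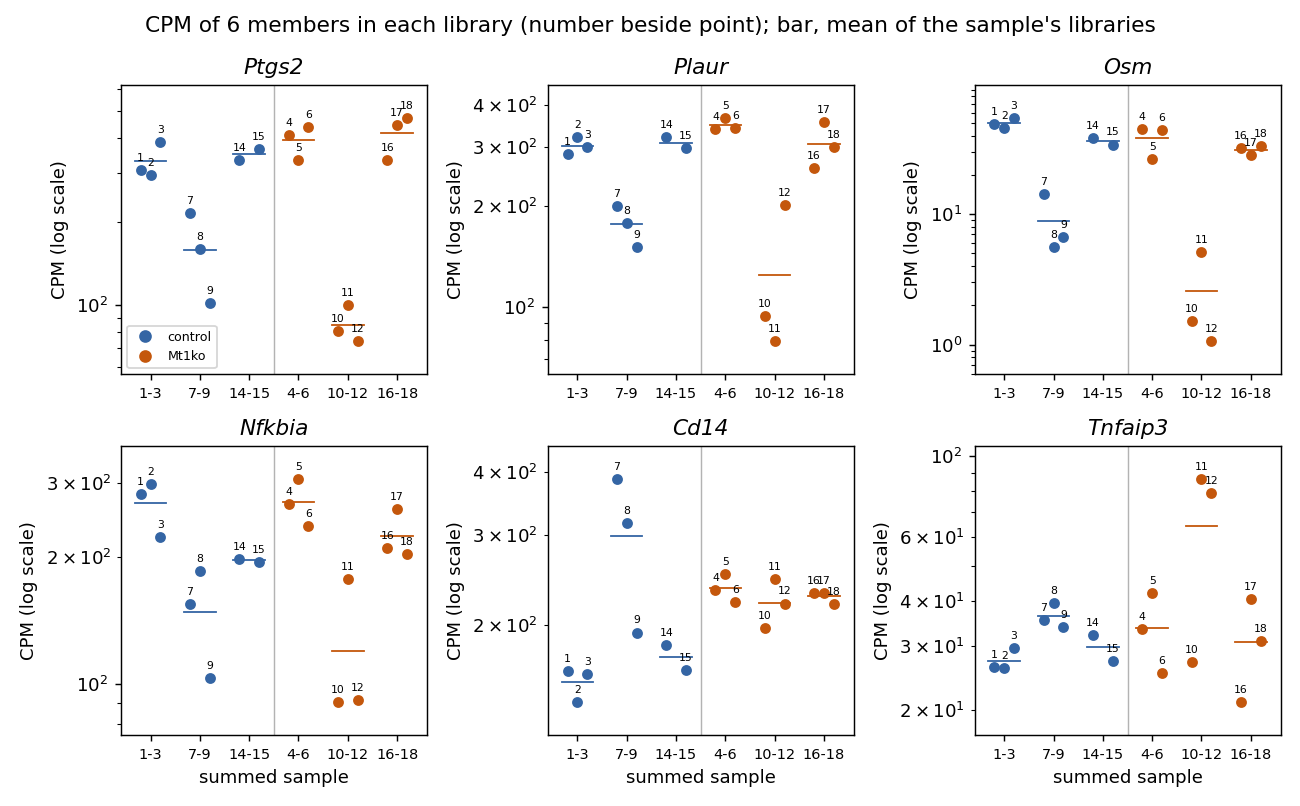
CPM of Ptgs2, Plaur, Osm, Nfkbia, Cd14 and Tnfaip3 in each of the 17 libraries (number beside the point, log scale), grouped by summed sample with control in blue and Mt1ko in orange; bars are means over the libraries of a sample. Libraries 7 to 12 of Ptgs2, Plaur and Osm lie below all others, with Osm at 1.07 to 14.2 against 26.5 to 54.2 CPM.

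Some other measures also differed between libraries, and only in part along the same order. The summed level of 16 neutrophil markers was 143 to 334 CPM in libraries 7 to 12 and 344 to 540.4 CPM in the other 11. The ranges nearly met, at library 9 (334) and library 18 (344). Single-library CPM use the plain total, of which mitochondrial ribosomal RNA took 11.2% in library 9 and 5.51% in library 18. The parting of the ranges may therefore rest on that scale. Of the neutrophil markers 10 reached 1 CPM in control and 9 in Mt1ko, and Camp and Retnlg were at 0 in all libraries. The 20 monocyte and macrophage markers summed to 9588 to 11942 CPM in libraries 7 to 9 but to 6983 to 7675 in libraries 10 to 12. Elsewhere they summed to 7432 to 9944. Totals of libraries 10 to 12 held 21.9% to 30.2% mitochondrial ribosomal RNA. With TMM scaling these markers had sample sums of 7551 to 10499 CPM in control and 8508 to 9313 in Mt1ko. On that scale sample 10-12 was thus not below every control sample. The 14 mast cell, basophil and eosinophil markers were highest in libraries 9 to 12 (2207, 2758, 7008 and 3461 CPM), then in library 15 (1474). Control library 8 had 714 CPM of them. Prg2, Epx, Ear6 and Prss34 were at 0 in all libraries. The 10 stroma and endothelium markers were highest in libraries 9 to 12 (48.4, 50.6, 116 and 62.5 CPM), against 13.1 to 33.7 elsewhere, with Cdh5 and Emcn at 0 throughout. Only 1 of the 10 reached 1 CPM in control and 2 in Mt1ko. In each group 1 reached 10 CPM, so few genes made up this sum. Sample sums of 12 megakaryocyte and platelet markers did not overlap between the groups, with 107 to 185 CPM in control and 201 to 322 in Mt1ko. Of all tested genes, 7.1% showed no overlap of the samples in either direction. Single libraries, on the plain total, did overlap: control library 3 held 219 CPM of these markers and Mt1ko library 4 held 198. Only 5 of the 12 reached 1 CPM in control and 6 in Mt1ko. Library 7 had 33.2 CPM of mast cell markers and 6.03% mitochondrial ribosomal RNA, both within the range of libraries 1 to 6 and 14 to 18, with 214 CPM of Ptgs2 and 14.2 CPM of Osm. The part of these markers and of mitochondrial ribosomal RNA in the order of the samples was not tested. In bulk marrow, fewer cells of a type and less RNA per cell cannot be told apart.

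Libraries of a sample were also less alike where the members were low. Over the 28 members at 5 CPM or more, the median coefficient of variation between libraries was 12.2%, 25.0% and 9.79% in control samples 1-3, 7-9 and 14-15. It was 10.4%, 45.8% and 15.3% in Mt1ko samples 4-6, 10-12 and 16-18. All genes at that level gave 13.8%, 19.3%, 14.2%, 11.2%, 41.8% and 13.5% in the same order. Sample 10-12 was the most uneven for the members and for all genes.

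The direction of a member depended on which samples were present. When each of the 6 samples was left out in turn, 11 of 33 members (33.3%) kept their direction throughout, against 42.2% of all tested genes. The 7 above 0 each time were Nfkb1, Tnfaip3, Tlr4, Cd14, Il1a, Il1b and Il1rn. The 4 below 0 each time were Bcl3, Cd40, Ripk2 and Birc3. The other 22 changed direction at least once. Without Mt1ko sample 4-6, 10 members changed direction and 11 lay above 0, with a median of -0.05. Without Mt1ko sample 10-12, 10 changed and 23 lay above 0. Without control samples 1-3, 7-9 and 14-15 in turn, 6, 7 and 5 members changed, and without Mt1ko sample 16-18, 5 changed. No member was called in any of these fits.

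**Figure D4:**
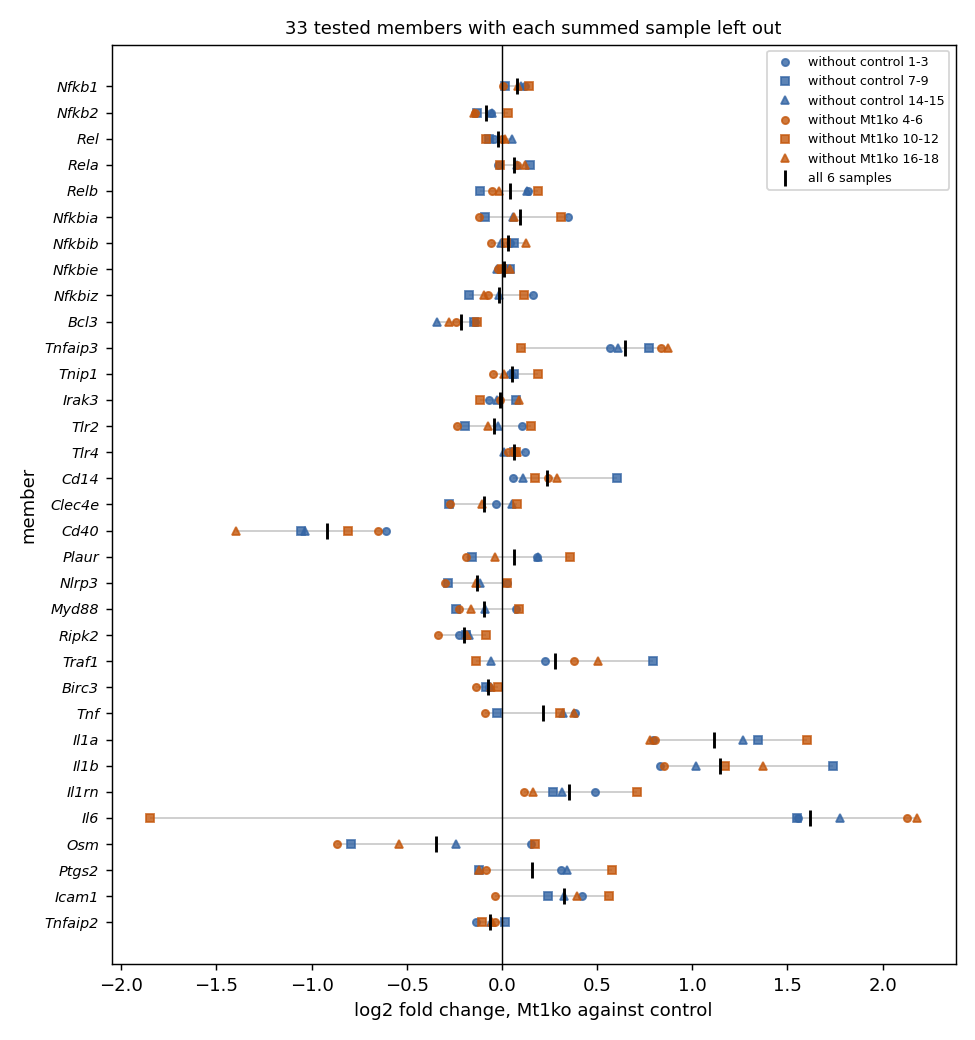
Log2 fold change of each tested member with all 6 samples (black tick) and with each sample left out (blue, a control sample left out; orange, an Mt1ko sample left out; shape gives the sample). Il6 goes from 1.62 to -1.85 without sample 10-12, and 22 of the 33 members have points on both sides of 0.

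The libraries fall into 3 classes by the second index sequence in their names, of which 2 hold both groups. With the first index, in 5 control and 3 Mt1ko libraries, 24 of 32 members were higher in Mt1ko and the median log2 difference of mean CPM, with 0.5 CPM added, was 0.07; of all genes 49.0% were higher and the median was -0.0075. All 3 of those Mt1ko libraries belong to sample 4-6. With the second, in 3 control and 4 Mt1ko libraries, 15 of 32 were higher and the median was -0.02, against 45.1% and -0.06 for all genes. Those 4 Mt1ko libraries are 10 to 12 and 16, so the indices also differ in the samples they hold. Only 13 of the 32 had the same direction in both. Ptgs2 differed by 0.56 with the first index and by -0.72 with the second. The third class held 2 Mt1ko libraries and no control.

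A wider list of 64 NF-kB and innate signalling genes outside the 34, covering IκB kinases, further Toll-like receptors, TRAF and IRAK proteins and ubiquitin regulators, gave a like result. All 64 were tested, 0 were called, 26 lay above 0 and 38 below, and the median was -0.02. Where the mean log2 CPM reached 1, the smallest p-values above 0 belonged to Rnf31 (0.36, SE 0.20), the catalytic subunit of the linear ubiquitin ligase, Birc2 (0.28, SE 0.21) and Tlr7 (0.21, SE 0.16). Below 0 they belonged to Tnip2 (-0.24, SE 0.17), Chuk (-0.35, SE 0.30), the gene of IκB kinase α, and Tlr6 (-0.31, SE 0.31), all on the log2 scale. In 3 of the 64 genes every Mt1ko sample lay above every control sample, beside the 7.1% of all genes that did not overlap in either direction: Tlr3, Rnf31 and Zc3h12a, the gene of the RNase regnase-1. Tlr3, a sensor of double-stranded RNA, was low, with 0.946, 0.4928 and 0.995 CPM in control and 1.41, 4.25 and 1.01 in Mt1ko (log2 fold change 1.45, SE 0.83). Zc3h12a measured 41.2, 37.0 and 38.8 CPM in control and 41.6, 42.0 and 41.3 in Mt1ko.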

How the data were processed

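Raw counts of genes, in whole numbers, were deposited by the authors for 17 libraries and for 6 sums of them. Each sum equalled its libraries in every gene, with 0 genes differing. Per the labels' protocols, extraction used the RNeasy Micro kit with DNase, and library construction used Takara's SMARTer stranded kit (v2 Pico), which marks strand. Trimmomatic 0.35, RSEM 1.3.3 and the builds GRCm38 and mm10 are named in the submitters' processing notes; what each did, and whether counting used strand, cannot be read from the sources used here. No library numbered 13 is among the 17 libraries of the labels and counts.

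Groups came from the sample titles. Counts of the 6 sums were tested by the quasi-likelihood F test of edgeR 4.0.16 (R 4.3.3), after filterByExpr and TMM scaling and with group as the only term, with Benjamini-Hochberg adjustment over 16666 genes and a threshold of 0.05. The TMM factor was 0.85 in Mt1ko sample 10-12 and 1.00 to 1.05 in the others. On simulated data with 200 changed genes among 15806, 129 genes were called, of which 3 were false. The planted changes were a doubling or halving at the least and spared the scarcest genes. The simulation therefore does not speak to smaller differences. Planted changes of several sizes were pooled, so the count of calls gives no rate for a doubling alone. Genes were simulated independently, without shifts shared by many genes such as those of sample 10-12. TMM scaling enters the CPM of sums, whereas the CPM of single libraries use the plain library total; libraries of a sample differed beyond counting noise. Coordinates came from GENCODE vM21, which held 55227 of the 56305 gene identifiers, and promoter letters from RefSeq. The alternatives tried were upper quartile or RLE scaling, a stricter filter or none, DESeq2 1.42.0, limma-voom (limma 3.58.1), libraries entered singly, the second index as a covariate, each sample left out, and library 6 left out. The fits without mitochondrially encoded genes and without both library 6 and sample 10-12 were added after seeing the data.

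The members, roles, pathway list and rule for named genes were chosen with earlier results of these data known. The rule named called members, members whose groups do not overlap, the 5 with the highest mean CPM, the 5 with the largest absolute log2 fold change, the smallest p in each role, and the 3 smallest p in each direction of the pathway list where the mean log2 CPM reached 1. Intervals of fold changes include the spread between sums, and floors for counts of 0 cover counting error only.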

Additional observations from a re-analysis of the deposited data

Results flagged for a closer look

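Of 68 groups of library values (34 members in 2 groups), 11 had a highest or lowest library that stood far from the others by Dixon's test at the 95% level. Its chance rate of about 1 in 20 holds for independent values, which libraries of the same sum are not. The 11 are therefore a description and not an excess over chance. In the control group, library 9 was lowest in Nfkb1 (66.9 CPM, next 105.7) and in Tlr2 (5.18, next 26.6). Library 7 was highest in Traf1 (6.58, next 2.95) and library 8 in Il1b (4.63, next 2.30). In the Mt1ko group, library 12 was lowest in Nfkb1 (64.9, next 95.1) and highest in Traf1 (8.81, next 4.46). Library 10 was highest in Irak3 (62.4, next 41.0), library 11 in Il6 (28.6, next 7.59) and library 5 in Il1b (10.3, next 5.16). Il10 was counted only in control library 14 (0.0597 CPM, 2 counts) and Mt1ko library 5 (0.143 CPM, 5 counts). A single value above 0 in a group is always flagged when the others are 0. Of the 11, 8 lay in libraries 7 to 12.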

How the results depend on the processing

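No paired analysis was made, because the labels name no pairing. Replicate numbers run on through both groups, so they neither give nor exclude one. Members called stayed at 0 under all alternatives run. No gene was called in the 6 sums with edgeR (171 at an unadjusted p under 0.05). With DESeq2, with libraries entered singly, without library 6, and without library 6 and sample 10-12, 1 gene was called each, and it was Mt1 (-1.84, -1.90, -2.30 and -2.21 on the log2 scale). Of 359 member values under the alternatives other than leaving out each sample in turn, 21 changed sign, on the log2 scale as follows. Without library 6 and sample 10-12 these were Clec4e 0.11, Il6 -1.73, Myd88 0.093, Nfkb2 0.075, Nfkbiz 0.091, Nlrp3 0.055, Osm 0.11, Rela -0.029, Tlr2 0.23, Traf1 -0.022. With the second index as a covariate they were Irak3 0.044, Ptgs2 -0.042, Relb -0.0032, Tlr2 0.14. With limma-voom they were Il6 -0.57, Nfkbiz 0.018. Irak3 became 0.0042 with RLE scaling, 0.0014 with the stricter filter and 0.0041 with DESeq2. Nfkbie became -0.014 with upper quartile scaling, and Tlr2 0.021 without library 6. The cause was not tested. On leaving out each sample, members above 0 ranged from 11 (without Mt1ko 4-6) to 23, and 43 of 198 member values changed sign. The ranges of the 22 members concerned were Nfkb2 -0.14 to 0.034, Rel -0.086 to 0.054, Rela -0.023 to 0.15, Relb -0.12 to 0.19, Nfkbia -0.12 to 0.35, Nfkbib -0.055 to 0.13, Nfkbie -0.026 to 0.045, Nfkbiz -0.17 to 0.17, Tnip1 -0.049 to 0.19, Irak3 -0.12 to 0.091, Tlr2 -0.23 to 0.15, Clec4e -0.28 to 0.078, Plaur -0.19 to 0.36, Nlrp3 -0.30 to 0.028, Myd88 -0.24 to 0.087, Traf1 -0.13 to 0.79, Tnf -0.091 to 0.39, Il6 -1.85 to 2.18, Osm -0.87 to 0.17, Ptgs2 -0.12 to 0.58, Icam1 -0.038 to 0.56, Tnfaip2 -0.14 to 0.014. The common biological coefficient of variation was 0.67 between sums. Counts were under 10 in at least 1 library for Cd40, Il1a, Il1b, Il6, Il10, Traf1 and Relb, the last only in libraries 10 and 12, and values of these genes in single libraries are the least precise.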
